A study of Mus musculus with 48 samples.

Results

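Broad promoters of genes with a single start cluster were described in T cells that were stimulated through the T cell receptor with or without engagement of PD-1. Capped 5' ends had been sequenced by CAGE, a method that reads the first bases of capped RNAs, and neighbouring start positions had been grouped into clusters, with 1 deposited table per cell system. A member was a cluster that carried 1 gene symbol, whose gene had no other cluster in that table, and whose end minus start was at least 75 bp. By this rule 1437 of 18025 clusters were members in the hybridoma table, and 1274 of 17272 were members in the CD4+ T cell table. They made up 17.9% of the 8010 single-cluster genes in the hybridoma table and 15.7% of the 8111 in the CD4+ table. The rule itself set no limit on level, but the clusters and their widths came from the same CAGE tags. Every hybridoma member reached at least 3.01 RPM (tags scaled to the library total) in its highest library. Every CD4+ member reached at least 3.002 RPM. A gene with few tags at baseline could therefore be a member through its stimulated libraries. The effect of this on the counts was not tested.

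The first system was the DO11.10 T hybridoma (strain BALB/c x AKR/J), a T cell line that recognises an ovalbumin peptide, given pOVA at 1, 10, 100, 1000 or 10000 nM, with 0 nM as the baseline. The second was primary mouse CD4+ T cells (strain BALB/cCrSlc), given 2C11, an antibody to CD3, at 10, 100, 1000 or 10000 ng/ml, with 0 ng/ml as the baseline. Every dose, 0 included, was tested with PD-1 engagement and without it, in 2 libraries per group and 3 at the top dose, or 26 hybridoma and 22 CD4+ libraries. The labels give neither the way PD-1 was engaged nor the duration of stimulation, the sex or age of the mice, nor whether libraries of a group came from separate cultures or animals, so p-values measure the spread between libraries, which may be technical.

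Mammalian promoters fall between 2 forms. Narrow promoters start transcription within a few bases and often carry a TATA box. Broad promoters spread their starts over a wide stretch of bases, usually lie in CpG islands, usually lack a TATA box, and are known mostly from widely expressed genes. T cell receptor signals reach transcription through NFAT, NF-kB and AP-1 factors. PD-1 is an inhibitory receptor that recruits phosphatases and dampens receptor and CD28 signals.

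The promoters of 6 members are shown because the results turn on them: Fasl and Arl5b were induced and were lower with PD-1 engagement in the hybridoma, Angptl2 was induced and lower with engagement in CD4+ cells, Adam10 and Isy1 were lower with engagement in both systems, and Pa2g4 was the most abundant hybridoma member. Each is the RefSeq window of GRCm38.p6, from 250 bases before to 50 bases after the annotated start, read along the gene, with CpG dinucleotides in capitals. The windows were matched by symbol and are on another build than the clusters, whose coordinates are in mm9. Fasl lies at chr1:161788446-161788745 (minus strand), Arl5b at chr2:15055070-15055369 (plus strand) and Angptl2 at chr2:33215711-33216010 (plus strand). Adam10 lies at chr9:70678732-70679031 (plus strand), Isy1 at chr6:87838710-87839009 (minus strand) and Pa2g4 at chr10:128565885-128566184 (minus strand).
Fasl: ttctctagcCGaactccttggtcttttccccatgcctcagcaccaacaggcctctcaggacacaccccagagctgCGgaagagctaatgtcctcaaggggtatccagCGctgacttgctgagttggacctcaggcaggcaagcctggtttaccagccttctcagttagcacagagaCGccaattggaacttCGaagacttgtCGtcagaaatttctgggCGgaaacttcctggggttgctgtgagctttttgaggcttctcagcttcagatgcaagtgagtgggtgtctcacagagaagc
Angptl2: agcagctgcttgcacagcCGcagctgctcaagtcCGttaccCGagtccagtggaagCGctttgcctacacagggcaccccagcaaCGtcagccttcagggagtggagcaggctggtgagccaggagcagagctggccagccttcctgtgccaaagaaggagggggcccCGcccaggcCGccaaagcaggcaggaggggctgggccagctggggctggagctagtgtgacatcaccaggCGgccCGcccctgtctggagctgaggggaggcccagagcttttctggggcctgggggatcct
Arl5b: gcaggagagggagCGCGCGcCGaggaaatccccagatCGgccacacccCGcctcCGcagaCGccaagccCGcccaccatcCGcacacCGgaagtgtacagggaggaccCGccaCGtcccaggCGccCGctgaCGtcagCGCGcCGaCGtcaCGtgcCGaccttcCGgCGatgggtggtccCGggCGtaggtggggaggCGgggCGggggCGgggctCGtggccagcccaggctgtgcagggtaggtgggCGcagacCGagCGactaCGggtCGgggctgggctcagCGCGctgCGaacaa
Adam10: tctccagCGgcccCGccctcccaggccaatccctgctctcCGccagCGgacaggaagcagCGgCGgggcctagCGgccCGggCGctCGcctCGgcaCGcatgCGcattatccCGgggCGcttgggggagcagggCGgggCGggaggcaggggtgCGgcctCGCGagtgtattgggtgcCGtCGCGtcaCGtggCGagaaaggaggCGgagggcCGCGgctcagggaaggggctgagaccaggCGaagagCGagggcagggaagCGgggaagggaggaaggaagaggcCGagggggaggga
Isy1: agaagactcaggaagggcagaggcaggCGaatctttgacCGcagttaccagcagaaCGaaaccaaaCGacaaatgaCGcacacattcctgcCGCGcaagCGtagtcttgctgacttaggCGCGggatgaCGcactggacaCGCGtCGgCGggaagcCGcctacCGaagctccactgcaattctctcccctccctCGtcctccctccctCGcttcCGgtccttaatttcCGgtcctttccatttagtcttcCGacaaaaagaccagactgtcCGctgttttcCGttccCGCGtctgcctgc
Pa2g4: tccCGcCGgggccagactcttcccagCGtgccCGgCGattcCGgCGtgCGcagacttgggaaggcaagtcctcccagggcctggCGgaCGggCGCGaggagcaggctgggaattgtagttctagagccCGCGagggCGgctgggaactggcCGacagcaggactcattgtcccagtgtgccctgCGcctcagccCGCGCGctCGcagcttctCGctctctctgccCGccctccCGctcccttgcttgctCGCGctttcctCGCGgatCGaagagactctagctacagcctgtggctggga

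These broad promoters differed from one another in base composition. The Fasl window held 7 CpG at 53.3% G+C, and the Angptl2 window 9 CpG at 66.7% G+C, with observed to expected CpG ratios of 0.328 and 0.272. The Arl5b window held 38 CpG with a ratio of 0.938, Adam10 held 32 with 0.844, Isy1 held 26 with 1.09 and Pa2g4 held 29 with 0.838. Over 22862 RefSeq genes with 1 window the median was 7 CpG, with 1 and 30 at the 10th and 90th percentiles, and the median ratio was 0.374. The motif TATAAA occurred in none of the 6 windows, and between 40 and 20 bases before the start in 2.27% of all windows. CCAAT or its reverse complement ATTGG occurred in the Fasl and Adam10 windows, in each of them at 2 places, which in Fasl overlap in the run ccaattgg, and in 38.2% of all windows. GGGCGG or its reverse complement CCGCCC occurred at 1 place in the Fasl window, at 2 in Angptl2 and Pa2g4, at 3 in Arl5b and Adam10, at none in Isy1, and in 35.2% of all windows. A match is a run of letters and not a site of binding. Because 76.4% of hybridoma and 77.3% of CD4+ members had a window of their own, under the 80% needed, a comparison of composition between broad and narrow promoters is void and is not given.

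Members had a median width of 103 bp in both tables, with quartiles of 86 and 132 bp in the hybridoma and 86 and 131 bp in CD4+ cells. The rest of the single-cluster genes had medians of 41 and 38 bp. The widest hybridoma members were Ube2d2 (a ubiquitin-conjugating enzyme, 285 bp), Rb1 (the retinoblastoma cell cycle brake, 279 bp), Rnf170 (a ubiquitin ligase, 278 bp), Slc16a6 (a transporter, 275 bp) and Trim44 (258 bp). The widest in CD4+ cells were Arfip1 (221 bp), the ubiquitin ligase Znrf2 (218 bp), the Polycomb protein gene Scmh1 (210 bp), Fam3a (209 bp) and Bend5 (202 bp). Just inside the limit, 33 hybridoma and 31 CD4+ members were 75 bp wide, with median levels of 14.7 and 18.2 RPM (tags scaled to the library total). Just outside it, 34 and 32 single-cluster genes were 74 bp wide, with median levels of 21.9 and 8.05 RPM.

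Broad single-cluster promoters carried less signal than narrow ones, a description with no test. A member's mean over all libraries had a median of 13.6 RPM against 20.4 RPM for narrower single-cluster genes in the hybridoma, and 13.5 RPM against 20.02 RPM in CD4+ cells. Members ranged up to 397 RPM in the hybridoma and 389 RPM in CD4+ cells, while narrow single-cluster genes ranged up to 6152 and 5566 RPM. The most abundant hybridoma members were Pa2g4 (a growth-related protein that binds ErbB3), Uqcrq and Atp5c1 (subunits of respiratory complex III and ATP synthase), the chromatin protein Morf4l1 and the glycyl-tRNA synthetase Gars, at 246 to 397 RPM. In CD4+ cells they were Scand1, the mitochondrial ribosomal gene Mrpl52, Uqcrq, Zfp706 and Morf4l1, at 228 to 389 RPM. RefSeq classes 1303 (90.7%) of the hybridoma members and 1167 (91.6%) of the CD4+ members as protein coding, 56 and 36 as long non-coding RNA, and 35 and 26 as pseudogenes.

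Breadth was in large part shared by the tables. The tables shared 842 members, or 58.6% of the hybridoma members and 66.1% of the CD4+ members, and in 841 of them the 2 clusters overlapped. A further 284 hybridoma members were single-cluster genes under 75 bp in CD4+ cells.

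Genes of some cellular machines were rare among broad single-cluster promoters. Of the proteasome subunit genes with 1 cluster, 0 of 27 were members in the hybridoma and 0 of 32 in CD4+ cells. Members were 3 of 73 and 3 of 77 respiratory chain genes, and 2 of 55 and 2 of 53 cell cycle and replication genes. In the hybridoma the highest shares were in regulators of chromatin (17 of 59), numbered zinc finger proteins (37 of 162), and ubiquitin ligases and conjugating enzymes (36 of 160). In CD4+ cells these lists had 9 of 58 (15.5%), 28 of 169 (16.6%) and 29 of 164 (17.7%). The highest shares there were in signal feedback regulators (3 of 16, 18.8%) and receptor-induced factors (4 of 22, 18.2%). Against 17.9% and 15.7% of all single-cluster genes, these shares are descriptions and were not tested as sets.

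**Figure D1:**
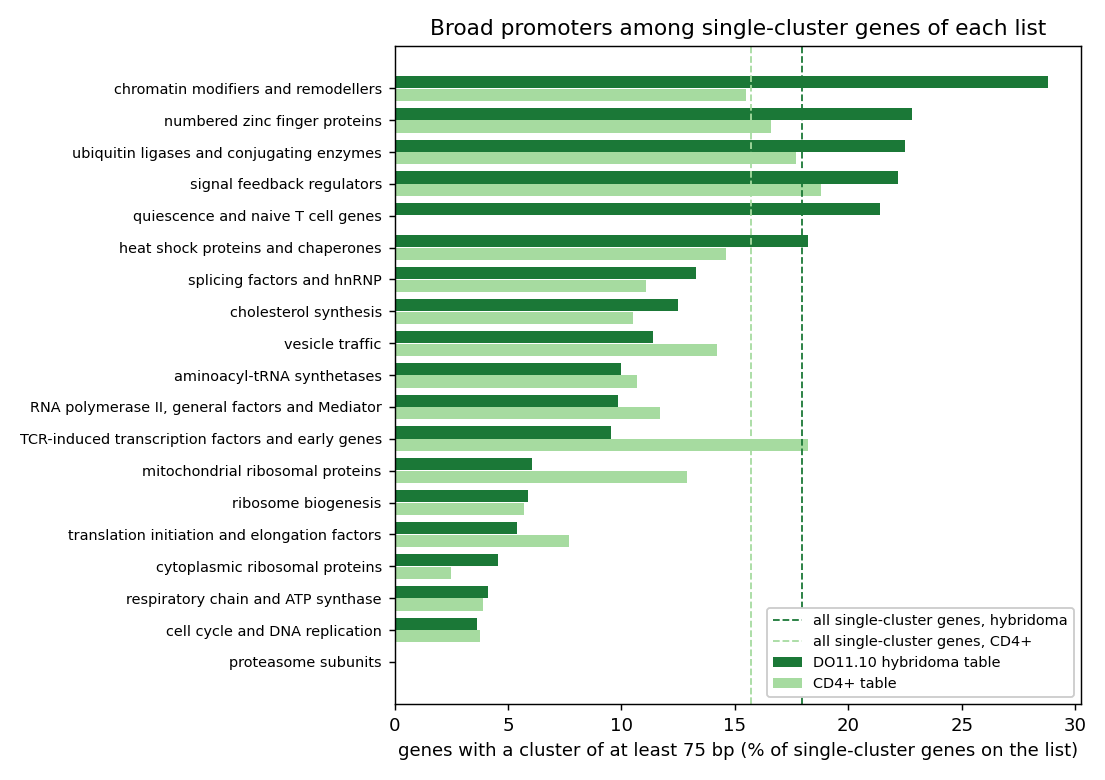
Percent of the single-cluster genes on each gene list that were at least 75 bp wide (horizontal axis), by list (vertical axis), in the hybridoma and in CD4+ T cells, with lines at the percent among all single-cluster genes. Proteasome subunits stand at 0 in both systems, while chromatin modifiers reach 28.8% in the hybridoma.

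Libraries held 7.79 M to 19.7 M tags in the hybridoma and 4.42 M to 22.8 M in CD4+ cells, and members took 3.64% to 4.58% and 3.21% to 4.18% of the deposited signal. T cell markers were present as labelled, 9 of 10 in the hybridoma, whose table had no Cd4 cluster, and 10 of 10 in CD4+ cells. Markers of B cells and of antigen-presenting cells were present too, 15 of 16 in the hybridoma and 13 of 16 in CD4+ cells. In the hybridoma their sum was 1027 and 1270 RPM in the engaged and unengaged dose 0 libraries of replicate 2, against 95.3 to 304 RPM in all other libraries. Counts of members, named genes and gene lists at the top hybridoma dose are therefore given also without these 2 libraries where that ended a call or moved a count by over 1.5 times. In bulk libraries fewer cells of a type and less RNA per cell cannot be told apart.

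More broad promoters fell than rose with strong stimulation in the hybridoma. At 10000 nM against 0 nM without engagement, 112 members rose and 342 fell, or 7.79% and 23.8% of 1437, against 13.8% and 16.2% of all 18014 clusters tested, with a median log2 difference of -0.24 among members and -0.07 over all clusters. A call is an adjusted p under 0.05 from limma on log2(RPM + 1), Benjamini-Hochberg over all clusters tested. Of the members called, 39 rose and 58 fell by at least 2-fold. Without both dose 0 libraries of replicate 2 the members that fell numbered 184, without the top-dose library of replicate 3 they numbered 225, and without the dose 0 library of replicate 1 those that rose numbered 73. With engagement in both groups, 78 rose and 311 fell (12.3% and 15.2% of all clusters).

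The named member with the highest rise was Fasl (Fas ligand, the death-inducing TNF family member of activated T cells; 89 bp, chr1:163718495-163718584, minus strand, mm9). Fasl had 83.9, 62.1 and 69.0 RPM at 10000 nM, against 0.09 and 0 RPM at 0 nM. That is 2264 tags against 1 tag, a ratio of 2000 with an exact 95% interval of 359 to 79200 that covers counting error only. On the log2(RPM + 1) scale the difference was 6.11 ± 0.16 (SE; limma adjusted p = 4.61e-15). Fasl lay under 1 RPM in every library at 0, 1 and 10 nM. It therefore passed the filter, at least 1 RPM in 2 libraries, only through higher doses. A rise was thus fixed by selection, and the p-value is no separate support for it.

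Other members named by the rule rose as well. Trib1, a pseudokinase scaffold for ubiquitin ligation, had 83.02, 69.4 and 55.6 RPM at 10000 nM, against 4.36 and 6.25 RPM at 0 nM (log2 difference 3.48, limma adjusted p = 1.67e-08). Arl5b, a small GTPase of the Golgi, had 74.6, 74.1 and 79.5 RPM, against 23.5 and 27.6 RPM (1.54, limma adjusted p = 1.17e-09). Cd28, the main costimulatory receptor, had 34.8, 26.9 and 30.4 RPM, against 10.9 and 10.7 RPM (1.42, limma adjusted p = 6.7e-06). The 2 groups did not overlap in these genes, as the naming rule required. Tmem88 (2.23), Sh3rf1, a JNK scaffold (1.58), the transporter Slc12a2 (1.41), the ubiquitin ligase Rnf149 (1.36), Trac, the T cell receptor alpha constant region (1.32), and the palmitoyltransferase Zdhhc20 (1.27) also rose on that scale.

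Il16, Cd200r1 and Tnfrsf8 were among the named members that fell most. Il16, a ligand of CD4, had 5.28, 5.08 and 5.27 RPM at 10000 nM, against 26.7 and 27.5 RPM at 0 nM (log2 difference -2.18 ± 0.14 SE, limma adjusted p = 8.85e-10). Cd200r1, an inhibitory receptor, had 3.22, 2.10 and 2.31 RPM, against 14.8 and 10.9 RPM (-1.97, limma adjusted p = 9e-09). Tnfrsf8 (CD30, a TNF receptor) had 3.87, 3.33 and 2.70 RPM, against 17.7 and 13.0 RPM (-1.92, limma adjusted p = 7.75e-07). The groups of each gene lay apart, which the naming rule required. The tubulin gene Tuba8 (-1.93), the metalloprotease gene Adam12 (-1.55), the retinoic acid receptor gene Rarg (-1.54), the G protein regulator Rgs14 (-1.52), the ETS factor Fli1 (-1.52), Zfp395 (-1.37) and the mitotic spindle gene Aspm (-1.28) fell as well.

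The most abundant members did not pass the test. Pa2g4 had 458, 401 and 375 RPM at 10000 nM, against 374 and 400 RPM at 0 nM (log2 difference 0.08 ± 0.10 SE, limma adjusted p = 0.521), and the groups overlapped. Uqcrq, Morf4l1, Atp5c1 and Gars had differences of 0.04, 0.03, 0.04 and -0.15 and did not pass the test. Ube2d2, the widest member, had 25.5, 212 and 18.9 RPM at 10000 nM, against 21.9 and 20.3 RPM at 0 nM, so that 1 library stood apart and the difference did not pass (limma adjusted p = 0.153).

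On several gene lists more hybridoma members fell than rose, as among all members, of which 7.79% rose and 23.8% fell. All 4 signal feedback regulators fell, namely Sla2, an adaptor that dampens receptor signals (-1.10), the ERK phosphatase Dusp6 (-0.84), the calcineurin regulator Rcan1 (-0.78) and the ubiquitin ligase Nedd4 (-0.66), with a list median of -0.81 on the log2 scale. Rcan1 did not pass without the dose 0 library of replicate 1 or without the top-dose library of replicate 3 (limma adjusted p = 0.0846 and 0.0532). Of the 14 single-cluster genes of this list under 75 bp, 7 rose and 2 fell (median 0.40). Of 37 numbered zinc finger genes 11 fell (29.7%) and 0 rose (median -0.35), led by Zfp821 (-1.55), Zfp395 (-1.37) and Zfp710 (-1.27), and without both dose 0 libraries of replicate 2, 8 fell and 1 rose. Of 17 chromatin regulators 7 fell (41.2%) and 0 rose (median -0.36), among them the Polycomb methyltransferase Ezh2 (-0.80), the deacetylase Hdac7 (-0.74) and the remodeller subunit Smarcc2 (-0.65). Without the unengaged dose 0 library of replicate 2 these 3 genes did not pass (limma adjusted p = 0.0515, 0.216 and 0.116), with Hdac7 at -0.45, and no other chromatin regulator did. Without both dose 0 libraries of replicate 2 only 1 chromatin regulator fell, and without the top-dose library of replicate 3 only 3 did. Of 36 ubiquitin enzymes 8 fell (22.2%) and 1 rose, a share near that of all members, and without both dose 0 libraries of replicate 2, 5 fell and 4 rose. Among single-cluster genes of these lists under 75 bp more fell than rose too. Of 125 zinc finger genes 22 fell and 5 rose (median -0.212). Of 42 chromatin regulators 16 fell and 1 rose (median -0.405), and of 124 ubiquitin enzymes 29 fell and 5 rose (median -0.27). Chaperones went the other way, with 3 of 8 members higher and 0 lower (median 0.20), but none passed without both dose 0 libraries of replicate 2, and 1 did without the dose 0 library of replicate 1 or without the top-dose library of replicate 2 or 3.

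Few translation and energy genes passed in the hybridoma. The rRNA helicase gene Ddx21 had 325, 252 and 332 RPM at 10000 nM, against 156 and 161 RPM at 0 nM (log2 difference 0.92, limma adjusted p = 0.000404). None of 3 respiratory chain members, 3 aminoacyl-tRNA synthetases, 2 translation factors and 6 splicing members passed. Maff, a small AP-1 related factor, had 12.2, 13.1 and 11.4 RPM, against 3.06 and 4.48 RPM (1.49, limma adjusted p = 6.7e-06), and Batf, another AP-1 family factor, had 11.5, 14.0 and 11.6 RPM, against 21.1 and 25.2 RPM (-0.86, limma adjusted p = 0.000183).

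In CD4+ cells broad promoters responded about as often as all clusters. At 10000 ng/ml against 0 ng/ml without engagement, 286 members rose and 522 fell, or 22.4% and 41.0% of 1274, against 26.2% and 38.2% of all 17269 clusters tested. Of the members called, 96 rose and 192 fell by a factor of 2 or more. The median log2 difference was -0.21 among members and -0.15 over all clusters. With quantile normalization, which moves the median of all clusters to -0.02, 355 members rose and 417 fell, so that 46.0% of the calls were higher in place of 35.4%. Of all clusters 30.1% rose and 32.1% fell with it. With engagement in both groups, 453 rose and 307 fell at 10000 ng/ml against 0 ng/ml (32.1% and 28.0% of all clusters).

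Fasl was again among the highest members, at 26.2, 22.4 and 26.6 RPM at 10000 ng/ml, against 2.00 and 2.07 RPM at 0 ng/ml (log2 difference 3.10 ± 0.15 SE, limma adjusted p = 3.45e-12). Angptl2, a secreted angiopoietin-like protein, had 30.2, 31.1 and 32.7 RPM, against 3.72 and 3.56 RPM (2.80 ± 0.16 SE, limma adjusted p = 3.48e-11). Slco4a1, a membrane transporter, had 32.3, 37.7 and 33.8 RPM, against 3.002 and 4.82 RPM (2.88, limma adjusted p = 3.15e-10). All 3 rose with no overlap between the groups, a condition of the naming rule. The secreted phospholipase Pla2g12a (2.23), Nle1, a factor of large ribosomal subunit assembly (2.20), the mitochondrial import factor Chchd4 (2.10), the endosome tether Eea1 (2.07), the lysine methyltransferase Smyd2 (2.05), the pyrophosphatase Ppa1 (2.00) and Sssca1 (1.99) rose too.

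Among named members Kif21b, a kinesin, fell most, with 24.7, 23.2 and 25.1 RPM at 10000 ng/ml, against 218 and 239 RPM at 0 ng/ml (log2 difference -3.18 ± 0.13 SE, limma adjusted p = 4.39e-13). Cdk19, a kinase of the Mediator module, had 5.72, 7.06 and 4.96 RPM, against 46.0 and 44.7 RPM (-2.76, limma adjusted p = 3e-11). Cdc25b, a phosphatase that activates cyclin-dependent kinases, had 7.34, 10.0 and 9.61 RPM, against 48.5 and 52.3 RPM (-2.37, limma adjusted p = 3.73e-11). None of these groups overlapped, again by the naming rule. Spata6 (-2.50), Crebl2 (-2.29), the ubiquitin ligase Rnf125 (-2.24), Gramd3 (-2.22), Smpdl3a (-2.19) and the cofilin phosphatase Ssh1 (-2.18) also fell.

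Biosynthesis members rose in CD4+ cells. Both ribosome biogenesis members rose, Ftsj3 with 73.9, 78.5 and 71.5 RPM at 10000 ng/ml against 16.4 and 20.4 RPM at 0 ng/ml (log2 difference 1.97, limma adjusted p = 1.15e-10), and Imp4 (1.42). All 3 translation factors rose (Eif3j 1.70, Eif1ax 1.03, Eif3i 0.58), as did all 3 respiratory chain members (Atp5g1 1.32, Uqcrq 0.91, Cox6a2 0.46), though Cox6a2 did not pass without the dose 0 library of replicate 2. Of 8 mitochondrial ribosomal members 5 rose and 1 fell, and of 5 splicing members 4 rose and 1 fell. Of all members 22.4% rose and 41.0% fell. Single-cluster genes of these lists under 75 bp rose as well, with 32 of 33 for ribosome biogenesis and 48 of 54 for mitochondrial ribosomal proteins. For translation factors 18 of 36 rose and 8 fell, and for the respiratory chain 48 of 74 rose and 5 fell. Of 7 chaperone members 4 rose and 2 fell, with Hsph1, a large heat shock protein, at 1.81.

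Early response genes rose while ubiquitin enzymes mostly fell. All 4 members on the list of receptor-induced factors rose, led by the stress factor Atf3, with 18.5, 18.2 and 16.4 RPM at 10000 ng/ml against 1.00 and 0.689 RPM at 0 ng/ml (log2 difference 3.35, limma adjusted p = 3.28e-10), and by Maff (2.06). Of 29 ubiquitin enzymes 19 fell and 5 rose (median -0.42), though 11 fell by edgeR, 10 by DESeq2 and 11 without the dose 0 library of replicate 2. Of 135 single-cluster ubiquitin enzymes under 75 bp, 68 fell and 22 rose (median -0.40). Of 9 chromatin regulators 4 fell and 1 rose, with the share that fell near the 41.0% of all members, of which 22.4% rose. Rnf32, a ubiquitin ligase, had 0.341, 0.307 and 0.450 RPM, against 8.79 and 10.9 RPM (-2.98, limma adjusted p = 1.31e-09). The proliferation marker Mki67 had 25.3, 30.1 and 28.2 RPM, against 80.4 and 94.2 RPM (-1.61, limma adjusted p = 2.33e-05).

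By limma, calls of members began at 100 nM and at 100 ng/ml, and the sets called changed up to the top doses. Of 412 hybridoma members called at 1000 nM, 331 were called in the same direction at 10000 nM, where 112 rose and 342 fell. Of 703 CD4+ members called at 1000 ng/ml, 608 were so at 10000 ng/ml, where 286 rose and 522 fell. In the hybridoma 0 members were called at 1 nM or at 10 nM by limma, while 132 and 140 had an unadjusted p under 0.05, and 0 and 5 of all clusters were called (0% and 0.0278%). Without the dose 0 library of replicate 1, 4 rose and 120 fell at 1 nM, and 3 rose and 112 fell at 10 nM. At 100 nM 44 rose and 68 fell (3.06% and 4.73%, against 5.76% and 2.91% of all clusters), and at 1000 nM 83 rose and 329 fell (5.78% and 22.9%, against 12.5% and 17.7%). In CD4+ cells 0 members were called at 10 ng/ml, where 36 had an unadjusted p under 0.05. At 100 ng/ml 207 rose and 74 fell (16.2% and 5.81%, against 13.6% and 7.18% of all clusters), and at 1000 ng/ml 363 rose and 340 fell (28.5% and 26.7%, against 28.1% and 29.9%).

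Single libraries carried much of these counts. At 100 nM the members that fell numbered 178 without the dose 0 library of replicate 1, 20 without that of replicate 2, and 18 and 13 without the 100 nM libraries of replicates 1 and 2, and those that rose numbered 25 without either 100 nM library. At 1000 nM the members that fell numbered 161 without the dose 0 library of replicate 2 and 122 without the 1000 nM library of replicate 2, which also left 53 that rose. At 100 ng/ml the members that rose numbered 103 and 116 without the dose 0 libraries of replicates 1 and 2 and 72 without the 100 ng/ml library of replicate 2, and those that fell numbered 37 to 49 without any 1 of the 4 libraries.

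**Figure D2:**
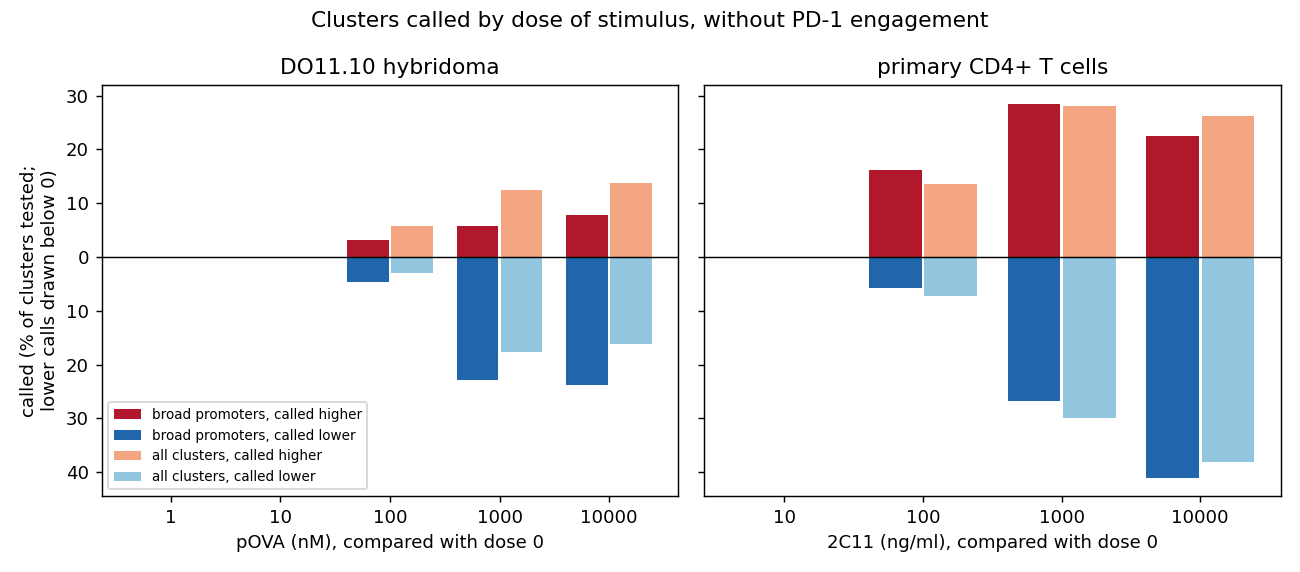
Percent of clusters called higher (bars up from 0) and lower (bars drawn down from 0) than dose 0 (vertical axis, limma adjusted p under 0.05) at each dose (horizontal axis, evenly spaced doses) without engagement, in the hybridoma (left) and in CD4+ T cells (right), with broad promoters beside all clusters. Member calls begin at 100 in both systems, and 41.0% of members were lower in CD4+ cells at 10000 ng/ml.

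The step in dose was also seen gene by gene. Fasl in the hybridoma had 0 and 0 RPM at 1 nM, 0.32 and 0.89 RPM at 10 nM, 29.1 and 29.96 RPM at 100 nM and 68.6 and 64.7 RPM at 1000 nM. Il16 had 24.0 and 21.9 RPM at 1 nM, 23.2 and 24.9 RPM at 10 nM, 11.9 and 10.9 RPM at 100 nM and 8.42 and 6.13 RPM at 1000 nM. In CD4+ cells Angptl2 had 3.13 and 2.54 RPM at 10 ng/ml, 9.41 and 13.4 RPM at 100 ng/ml and 25.7 and 28.3 RPM at 1000 ng/ml. Kif21b had 210 and 212 RPM at 10 ng/ml, 116 and 119 RPM at 100 ng/ml and 36.2 and 30.3 RPM at 1000 ng/ml. Each therefore lay near its dose 0 level at 10 and had moved most of the way at 1000. The middle of each rise was taken on mean RPM, a linear scale, between the means at dose 0 and at the top dose. Of 39 hybridoma members that rose at least 2-fold at 10000 nM, 19 (48.7%) first reached it at 100 nM and 20 (51.3%) at 1000 nM. Among all 1024 such hybridoma clusters the shares were 52.2% and 41.7%. Of 96 such CD4+ members, 22 (22.9%) first reached it at 100 ng/ml and 74 (77.1%) at 1000 ng/ml, against 16.1% and 80.6% of 1923 clusters.

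**Figure D3:**
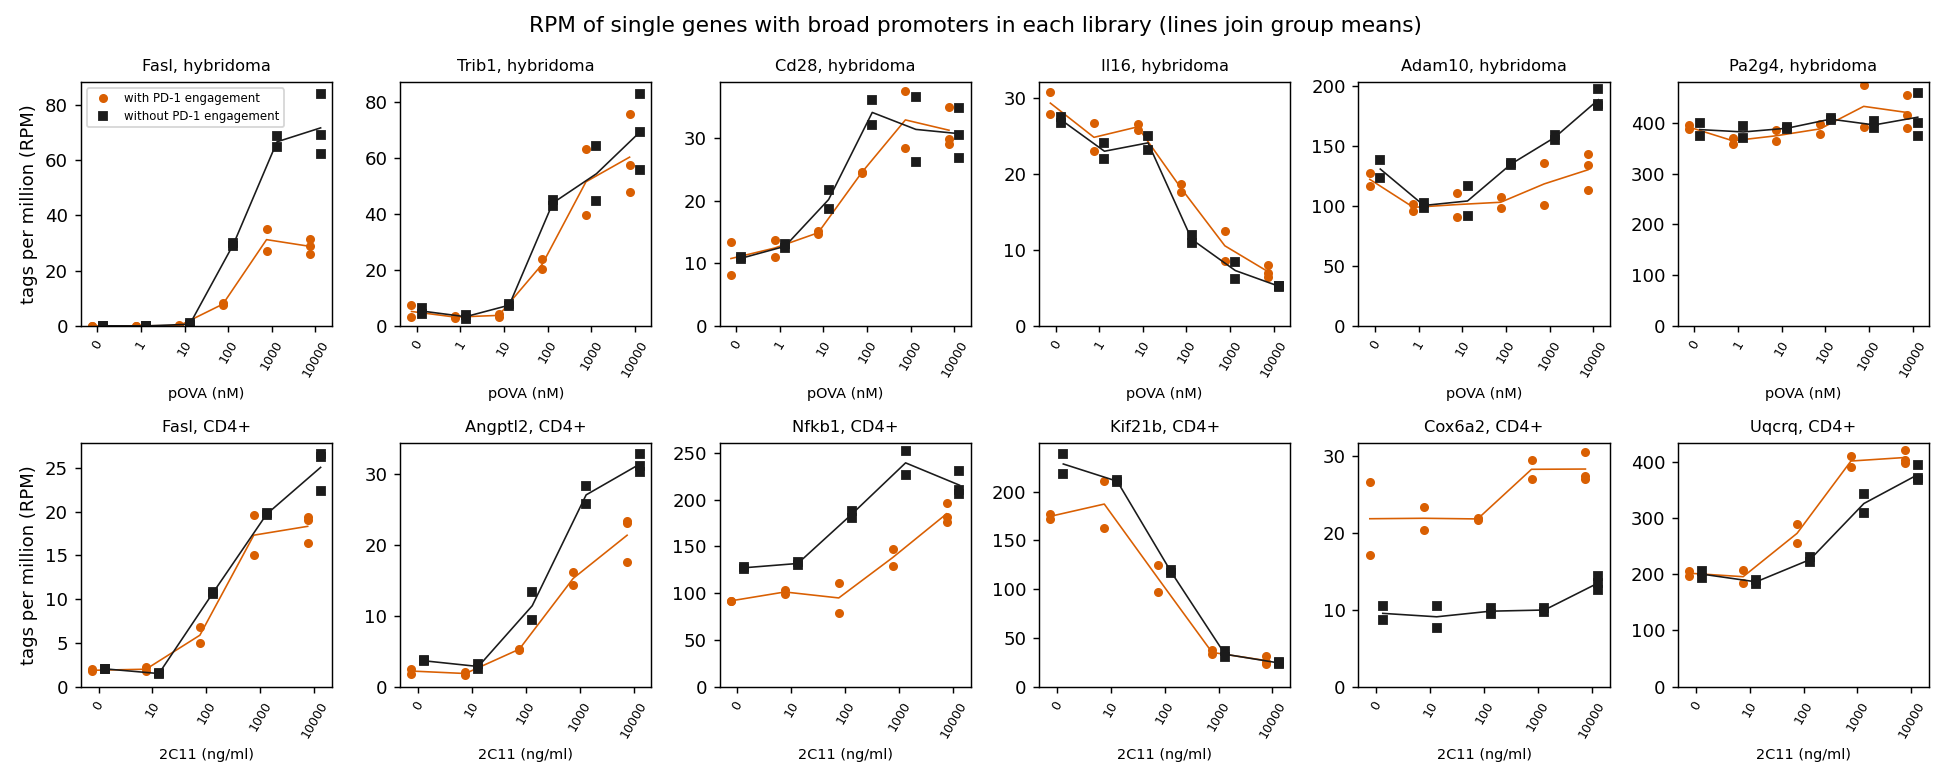
RPM (vertical axes, linear, each panel with its own scale) of 6 members in the hybridoma (top row) and 6 in CD4+ T cells (bottom row) at each dose (horizontal axes, evenly spaced doses), with PD-1 engagement (circles, drawn left) and without it (squares), each point 1 library and each line through group means. Hybridoma Fasl lies lower with engagement at 100, 1000 and 10000 nM, CD4+ Kif21b comes down between 10 and 1000 ng/ml in both series, and CD4+ Cox6a2 lies higher with engagement at every dose.

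Few hybridoma members were called with PD-1 engagement over the stimulated doses, 1.32% by the fit without pairing and 5.29% with libraries paired. Of all clusters 1.82% and 6.21% were called. Values below are from the fit without pairing unless a block is named. Averaged over the 5 stimulated doses, 2 members were higher and 17 were lower with engagement than without it, or 0.139% and 1.18%, against 0.0999% and 1.72% of all clusters. The hybridoma replicate numbers were taken to pair engaged with unengaged libraries (correlations of 0.208 to 0.656). With a replicate block 23 members were higher and 53 lower (1.6% and 3.69%, against 1.56% and 4.65% of all clusters). By single dose, limma called 0 members at 0, 1 and 10 nM, where 10, 9 and 11 had an unadjusted p under 0.05 and 0, 0 and 5 of all clusters were called (0%, 0% and 0.0278%, all of them lower). At 100 nM 0 were higher and 12 lower (0.0222% and 1.09% of all clusters), with 6 and 46 under the block (0.422% and 3.53% of all clusters). At 1000 nM 1 was higher and 2 lower (0.00555% and 0.272%), with 42 and 21 under the block (2.93% and 2.19% of all clusters). At 10000 nM 2 were higher and 10 lower (0.128% and 0.677%), with 13 and 17 under the block (0.822% and 1.74% of all clusters). Without the unengaged 100 nM library of replicate 1 the lower members at 100 nM numbered 6, without any 1 library at 1000 nM 0 or 1 was lower, and without the unengaged 10000 nM libraries of replicates 1 and 2 or the engaged ones of replicates 2 and 3 the lower members at 10000 nM numbered 4 or 5.

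The 17 members lower with engagement were led by Fasl. Of the 19 members called all but 1 are named, of which 4 met the naming rule and the others were chosen after their values were seen. At 100 nM Fasl had 7.59 and 8.19 RPM with engagement, against 29.1 and 29.96 RPM without it (log2 difference -1.78, limma adjusted p = 1.16e-05). At 1000 nM it had 35.2 and 27.3 RPM, against 68.6 and 64.7 RPM (-1.08, limma adjusted p = 0.00689), and at 10000 nM 31.3, 26.0 and 29.0 RPM, against 83.9, 62.1 and 69.0 RPM (-1.28, limma adjusted p = 5.31e-05). Engaged and unengaged libraries lay apart at all 3 doses. Averaged over the stimulated doses the difference was -0.93 ± 0.08 (SE, limma adjusted p = 1.27e-06), but edgeR and DESeq2 gave differences of -0.94 and -1.16 with adjusted p = 1.0 and 0.342. Crtam, an adhesion receptor of activated T cells, had 29.5, 33.1 and 24.9 RPM at 10000 nM without engagement, against 0 and 0 RPM at 0 nM, at least 274-fold higher (floor of 3 tags over both dose 0 libraries). Like Fasl, it lay under 1 RPM in every library at 0, 1 and 10 nM, so its rise was fixed by the same filter. At 100 nM Crtam had 1.57 and 2.05 RPM with engagement, against 13.3 and 10.3 RPM without it (-2.18, limma adjusted p = 1.01e-06), and at 10000 nM 10.4, 12.4 and 10.4 RPM, against the 3 unengaged values above (-1.32, limma adjusted p = 2.28e-05).

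The other members lower with engagement were of several kinds. Among surface and secreted proteins, the TNF receptor Cd27 had 1.33 and 1.90 RPM with engagement at 100 nM, against 5.67 and 5.88 RPM without it (log2 difference -1.38, limma adjusted p = 0.00405). The semaphorin Sema4c had 0.55 and 0.22 RPM, against 4.10 and 5.16 RPM (-2.03, limma adjusted p = 0.000586). The cytokine gene Tslp, the matricellular gene Wisp1, the ion channel gene Trpa1 and the sheddase Adam10 were also lower over the stimulated doses, with log2 differences of -0.71, -0.65, -0.45 and -0.28. Among genes of the cell interior, the sulfotransferase Sult2b1 (-0.69), the repressor Zeb2 (-0.47), the ubiquitin ligase Hectd2 (-0.40), the splicing factor Isy1 (-0.29), Arl5b (-0.24), the dynein regulator Ndel1 (-0.21) and the predicted models Gm17173 and Gm14718 were lower. Adam10 and Ndel1 passed narrowly, and leaving out any of 4 and of 5 single libraries took them above the threshold (adjusted p up to 0.0572 and 0.0531).

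Both members higher with engagement had fallen with stimulation. Il16 had 17.5 and 18.6 RPM with engagement at 100 nM, against 11.9 and 10.9 RPM without it, and over the stimulated doses the log2 difference was 0.34 ± 0.07 (SE, limma adjusted p = 0.00757). Cd200r1 had 6.81 and 7.97 RPM with engagement at 1000 nM, against 3.64 and 2.91 RPM without it (0.97, limma adjusted p = 0.0098), and 5.58, 5.94 and 5.66 RPM at 10000 nM, against 3.22, 2.10 and 2.31 RPM (0.94, limma adjusted p = 0.000849). Stimulation and engagement contrasts share the unengaged libraries, so their directions are not independent. Trib1, which rose strongly with dose, had 20.4 and 23.8 RPM with engagement at 100 nM, against 42.8 and 45.0 RPM without it, and 75.6, 57.6 and 47.8 RPM at 10000 nM, against 83.02, 69.4 and 55.6 RPM, and passed at neither dose (limma adjusted p = 0.246 and 1). The summed level of the B cell and antigen-presenting markers was 156 to 304 RPM with engagement at 10000 nM, against 165 to 250 RPM without it, and 171 to 201 RPM at 100 nM, against 114 to 181 RPM. With these markers as a covariate 5 members were higher and 19 lower, the 17 among them (0.255% and 2.17% of all clusters).

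In CD4+ cells many broad promoters were lower with PD-1 engagement, and most differences were small. Averaged over the 4 stimulated doses, 47 members were higher and 524 were lower, or 3.69% and 41.1%, against 7.19% and 28.0% of all clusters, and 0 of those lower and 3 of those higher reached 2-fold. The median log2 difference was -0.17 among members and -0.10 over all clusters. With quantile normalization, which moves the median of all clusters to -0.01, 99 members were higher and 202 lower, or 7.77% and 15.9%, against 11.5% and 11.8% of all clusters, so that 32.9% of the calls were higher in place of 8.23%. By edgeR 101 were higher and 246 lower (13.1% and 12.9% of all clusters), and by DESeq2 80 and 213 (11.7% and 11.3%). Members took 3.31% of the deposited signal with engagement at 100 ng/ml, against 4.03% without it, and 3.72% at 10000 ng/ml, against 3.55%.

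Library measures moved with engagement in CD4+ cells. Tags in the deposited clusters made up 81.8% to 86.1% with engagement, against 84.8% to 87.1% without it. The B cell and antigen-presenting cell marker sum was 1088 to 1246 RPM with engagement at 100 ng/ml, against 730 to 887 RPM without it, and 884 to 1264 RPM at 10000 ng/ml, against 592 to 948 RPM. With these markers as a covariate, an alternative chosen after the data were seen, 40 members were higher and 560 lower (7.16% and 31.4% of all clusters). The part of the share of tags in clusters was not tested.

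Nfkb1 and Angptl2 were among the named members lower with engagement. Nfkb1, which encodes the NF-kB subunit p105/p50, had 78.9 and 111 RPM with engagement at 100 ng/ml, against 181 and 188 RPM without it (log2 difference -0.97, limma adjusted p = 8.88e-05), and 129 and 148 RPM at 1000 ng/ml, against 227 and 252 RPM (-0.79, limma adjusted p = 0.000899). Over the stimulated doses the difference was -0.59 ± 0.06 (SE, limma adjusted p = 2.34e-06). Angptl2 had 5.20 and 5.35 RPM with engagement at 100 ng/ml, against 9.41 and 13.4 RPM (-0.96, limma adjusted p = 0.00098), 14.3 and 16.2 RPM at 1000 ng/ml, against 25.7 and 28.3 RPM (-0.79, limma adjusted p = 0.00778), and 23.4, 23.01 and 17.6 RPM at 10000 ng/ml, against 30.2, 31.1 and 32.7 RPM (-0.55, limma adjusted p = 0.0358). The engaged libraries lay under the unengaged ones at each of these doses. Slco4a1 (-0.64), the scramblase Plscr1 (-0.57), the polyamine enzyme Odc1 (-0.55), Uap1 (-0.55), the sulfotransferase Chst2 (-0.54), the deubiquitinase Usp36 (-0.51), Hnrpll (-0.51), a regulator of CD45 splicing, and Phactr2 (-0.51) complete the named members that were lower. Fasl had 4.98 and 6.78 RPM with engagement at 100 ng/ml, against 10.6 and 10.8 RPM without it (-0.78, limma adjusted p = 0.00226), and over all stimulated doses -0.29, a call that edgeR, DESeq2 and quantile normalization did not make (adjusted p = 0.32, 0.447 and 0.0727).

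A few members were higher with engagement. Cox6a2, a subunit of cytochrome c oxidase best known from heart and skeletal muscle, had 21.7 and 21.9 RPM with engagement at 100 ng/ml, against 10.2 and 9.39 RPM without it, 27.0 and 29.5 RPM at 1000 ng/ml, against 9.65 and 10.3 RPM, and 30.5, 27.3 and 27.0 RPM at 10000 ng/ml, against 12.5, 14.4 and 13.5 RPM. It was higher at 0 ng/ml too, with 17.0 and 26.6 RPM, against 10.4 and 8.61 RPM (log2 difference 1.09, limma adjusted p = 0.00794), and over the stimulated doses by 1.18 ± 0.08 (SE, limma adjusted p = 6.36e-08). Irak1bp1, which encodes a partner of the kinase IRAK1, had 18.3 and 21.0 RPM with engagement at 100 ng/ml, against 6.28 and 6.02 RPM, and was higher by 1.08 over the stimulated doses (limma adjusted p = 2.58e-07). For both genes every engaged library lay above every unengaged one at the same dose. The transcript AC123853.2 (0.75), Acyp1 (0.24), the Polycomb-related gene Scml4 (0.24), Sh3bgrl (0.20), Uqcrq (0.19), Siva1 (0.17), Cnpy2 (0.15) and Nsmce1 (0.15) complete the named members that were higher. With the same marker covariate, Scml4, Sh3bgrl, Siva1 and Cnpy2 no longer passed (limma adjusted p = 0.0745, 0.709, 0.194 and 0.119). Nor did Scml4 and Nsmce1 without any of 6 single libraries, Siva1 without any of 7, Sh3bgrl without any of 4 and Cnpy2 without any of 3 (adjusted p up to 0.0802, 0.0918, 0.0815, 0.0689 and 0.0657).

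On most lists CD4+ members with a call were lower with engagement, as were 41.1% of all members and 28.0% of all clusters. Of 29 ubiquitin enzymes 16 were lower (55.2%) and 0 higher (median -0.19), but 7 were lower with quantile normalization and 9 by edgeR and by DESeq2. Of 22 vesicle traffic genes 11 were lower and 0 higher (median -0.22), but 5 with quantile normalization, 7 by edgeR and 6 by DESeq2 were lower. Of 7 chaperones 5 were lower (median -0.29), and of 7 genes of RNA polymerase II, its general factors and Mediator 5 were lower (median -0.23). On each of these lists 1 member was lower with quantile normalization and 2 by edgeR and by DESeq2. Both ribosome biogenesis members were lower (Ftsj3 -0.36, Imp4 -0.21), though Imp4 did not pass with quantile normalization, by edgeR or by DESeq2 (adjusted p = 0.303, 0.142 and 0.164). Of 4 receptor-induced factors 3 were lower, Maff by -0.62 and Atf3 by -0.56 among them, though Atf3 did not pass by edgeR or DESeq2 (adjusted p = 0.0814 and 0.1). Respiratory chain members went the other way, with 2 of 3 higher.

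Counts of CD4+ members called with engagement differed between doses, a difference that was not tested. Without stimulation 20 were higher and 113 lower with engagement (1.57% and 8.87%, against 2.67% and 6.83% of all clusters). With quantile normalization these were 18 and 5 (2.13% and 0.678% of all clusters), and with the marker covariate 25 and 250 (4.3% and 15.4%). Without any 1 of the 4 libraries they were 0 to 6 and 0 to 23. At 10 ng/ml 3 were higher and 5 lower (0.151% and 0.272% of all clusters), with the marker covariate 9 and 43, and without any 1 of the 4 libraries 0 were lower. At 100 ng/ml 32 were higher and 488 lower (2.51% and 38.3%, against 4.94% and 24.5%), with 8 higher and 129 lower when the unengaged library of replicate 2 was left out, and 12 higher and 226 lower when the engaged library of replicate 1 was. At 1000 ng/ml 15 were higher and 220 lower (1.18% and 17.3%, against 2.02% and 10.5%), with 5 to 7 higher and 66 to 95 lower when any 1 of the 4 libraries was left out. With quantile normalization 48 were higher and 143 lower at 100 ng/ml (7.05% and 8.05% of all clusters), and 50 and 66 at 1000 ng/ml (4.51% and 3.18%). With the marker covariate 32 were higher and 628 lower at 100 ng/ml (6.72% and 33.1% of all clusters), and 14 and 340 at 1000 ng/ml (2.35% and 18.9%).

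At 10000 ng/ml more members were higher than lower with engagement, 89 and 22 (6.99% and 1.73%, against 3.31% and 1.49% of all clusters). With quantile normalization 62 were higher and 27 lower (2.32% and 1.8% of all clusters). With the marker covariate 54 were higher and 51 lower (2.25% and 4.16% of all clusters). The balance was thus not kept with the covariate, among members or over all clusters. The median log2 difference of members was then -0.05 in place of 0.05. Mki67 had 39.3, 92.05 and 86.1 RPM with engagement, against 25.3, 30.1 and 28.2 RPM without it (log2 difference 1.26, limma adjusted p = 0.00586), and the vesicle traffic gene Rab40c had 5.05, 14.8 and 11.4 RPM, against 1.88, 2.59 and 3.15 RPM (1.60, limma adjusted p = 0.00227). Both were lowest with engagement in the library of replicate 1. Havcr2, the inhibitory receptor TIM-3, had 3.15, 3.38 and 2.85 RPM with engagement, against 7.93, 6.45 and 9.16 RPM without it (-1.09, limma adjusted p = 0.00142), and the cytotoxic protease gene Gzmb had 149, 142 and 125 RPM, against 233, 246 and 232 RPM (-0.78, limma adjusted p = 0.00656). These 4 genes were chosen after their values were seen. Leaving out the engaged library of replicate 1 gave 133 higher and 37 lower, and leaving out any other of the 6 libraries gave 20 to 72 higher and 4 to 9 lower.

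**Figure D4:**
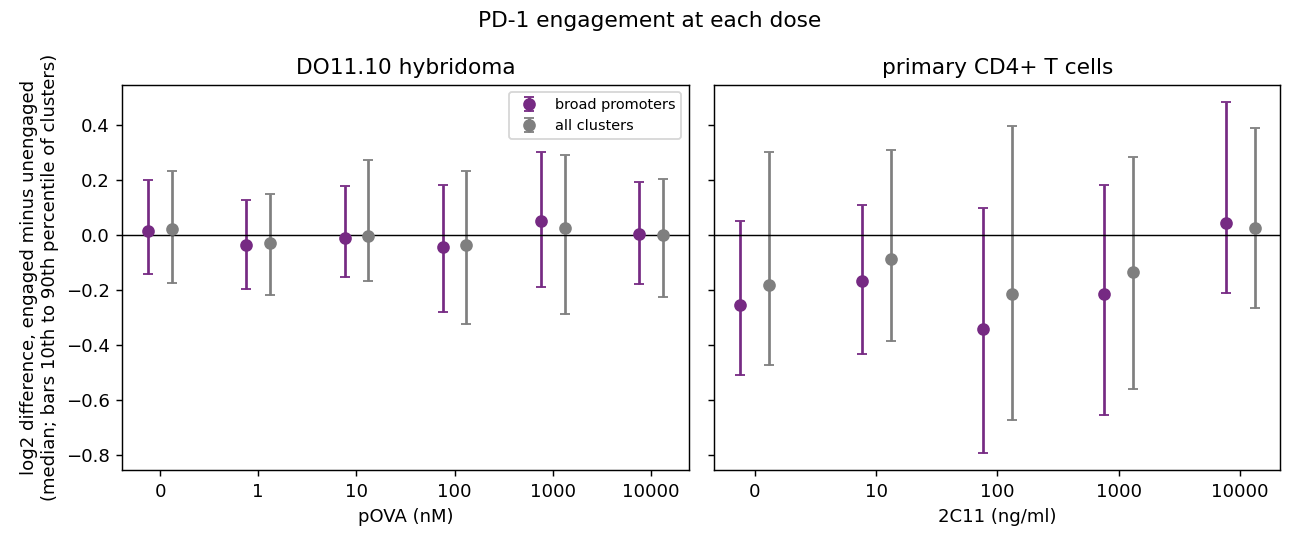
Log2 difference, engaged minus unengaged (vertical axis), at each dose (horizontal axis, evenly spaced doses) in the hybridoma (left) and in CD4+ T cells (right), with broad promoters (purple, left) beside all clusters (grey). Points are medians over clusters and bars run from the 10th to the 90th percentile of clusters, which is not an error, and the CD4+ median of members lies at -0.34 at 100 ng/ml and at 0.05 at 10000 ng/ml, which with the marker covariate, not drawn, is -0.05.

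Shares of calls differed between width classes. In the hybridoma 6.31% of the single-cluster genes of 10 to 74 bp rose and 20.8% fell at the top dose, against 19.3% and 12.1% of those under 10 bp, beside the 7.79% and 23.8% of members. In CD4+ cells the same classes gave 27.0% and 38.8%, and 34.8% and 26.4%, beside 22.4% and 41.0%. With engagement in CD4+ cells 36.0% and 24.9% were lower, beside 41.1% of members. The classes differ in level, and within the third of clusters with the highest mean level 59.3% of 460 members were lower with engagement, against 47.7% of 2960 single-cluster genes of 10 to 74 bp and 47.3% of all clusters. These shares were not tested, and with cuts at 50 and at 100 bp the percent of CD4+ members lower with engagement was 40.5% and 42.5%.

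Among the 842 members shared by both systems, responses in the same direction outnumbered opposite ones. At the top dose 34 rose in both, 127 fell in both, 5 rose in the hybridoma and fell in CD4+ cells, and 10 did the reverse. In a joint fit of 6766 single-cluster genes by limma, the response to stimulation differed between systems for 285 of the 842 (33.8%), against 38.2% of all, and the response to engagement for 118 (14.0%), against 10.4% of all. With engagement 7 of the shared members were lower in the hybridoma and 373 in CD4+ cells. Lower in both were 6, namely Fasl, Adam10, Hectd2, Isy1, Wisp1 and Zeb2, an overlap that was not tested. The CD4+ call of Fasl was not made by edgeR, DESeq2 or quantile normalization. In the hybridoma 0 shared members were higher, so that 0 were higher in both. Isy1 had 72.9 and 73.6 RPM with engagement at 100 nM, against 113 and 107 RPM without it in the hybridoma, and 50.9 and 51.4 RPM with engagement at 100 ng/ml, against 66.5 and 66.5 RPM without it in CD4+ cells. Adam10 had 143, 134 and 113 RPM with engagement at 10000 nM, against 198, 185 and 183 RPM without it in the hybridoma, and 71.2 and 71.5 RPM with engagement at 1000 ng/ml, against 113 and 119 RPM without it in CD4+ cells. The doses of the 2 agents have no common scale.

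**Figure D5:**
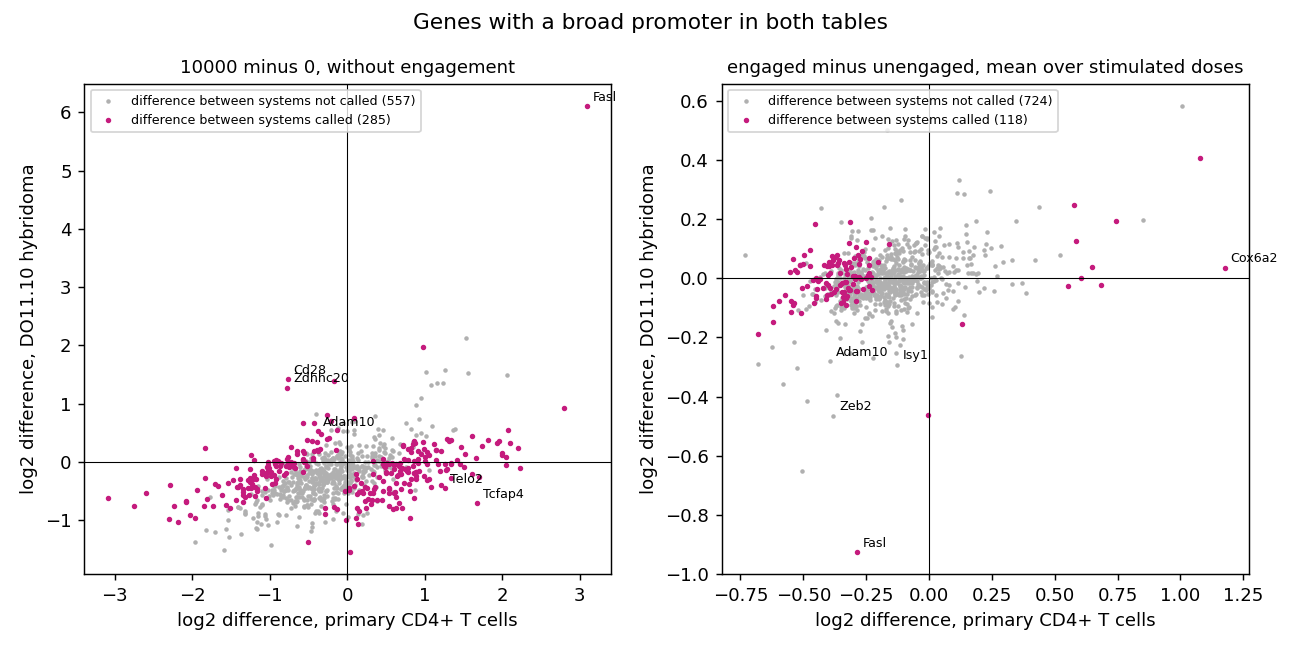
Log2 difference in the hybridoma (vertical axis) against that in CD4+ T cells (horizontal axis) for the 842 shared members, for stimulation at 10000 against 0 (left) and for engagement against none over the stimulated doses (right), each point 1 gene, coloured where the difference between systems was called in the joint fit. Fasl stands highest for stimulation, at 6.11 in the hybridoma and 3.10 in CD4+ cells, and Cox6a2 stands far right for engagement, at 1.18 in CD4+ cells.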

How the data were processed

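The 26 hybridoma and 22 CD4+ libraries were deposited as 1 table of CAGE clusters per system, with RPM values, scaled to the tag total of each library by the authors. Per the submitters' processing notes, BWA 0.7.12 and HISAT2 2.0.5 and the build mm9 were used. Every low deposited RPM value was a whole number of tags within 0.1 tag, so tag counts were recovered for edgeR and DESeq2.

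Levels were tested as log2(RPM + 1) with limma 3.58.1 in R 4.3.3, on clusters with at least 1 RPM in 2 libraries, with 1 mean per group, all libraries of a table and Benjamini-Hochberg adjustment over all clusters. limma was tested on simulated data. edgeR 4.0.16 and DESeq2 1.42.0 were alternatives, as were other pseudocounts, filters, scalings and widths, a marker covariate, a replicate block and leaving out each library.

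Engaged and unengaged hybridoma libraries of 1 number deviated together (correlations 0.208 to 0.656), so these numbers were taken as pairs. Those of CD4+ cells (-0.019 to 0.208) were not, though the 2 ranges meet and no test set them apart.

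Genes were named by rule: called, at or above the median level, no overlap of groups (stimulation) or 1 sign at every stimulated dose (engagement), no predicted models, then the 10 highest and 10 lowest, the 5 widest, the 5 most abundant and up to 3 per list. Members and lists were chosen with earlier results of these data known, and the proteasome and translation factor lists were corrected after matching. Promoter windows came from RefSeq, GRCm38.p6, by symbol. Intervals and floors cover counting error only. Symbols given as dates are counted and not named, and a few other genes are counted and not reported here.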

Additional observations from a re-analysis of the deposited data

Results flagged for a closer look

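Values here are log2 differences in response, hybridoma minus CD4+ cells, from the joint limma fit over 6766 genes, each with its Benjamini-Hochberg adjusted p. They stand out because the response differed between the 2 systems, which were given different agents with no common scale of dose.

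Of the members named for their response, Fasl was induced more strongly in the hybridoma by 3.01 (limma adjusted p = 2.75e-12), and the response of Cox6a2 to PD-1 engagement differed by -1.14 (limma adjusted p = 1.62e-10), with log2 differences of 0.04 in the hybridoma, where it did not pass, and 1.18 in CD4+ cells.

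The other 15 genes were called in opposite directions at the top dose. They were chosen for those opposite calls and for passing in the joint fit of the same libraries. Their adjusted p-values are therefore no separate support for a difference. Cd28, the costimulatory receptor, differed by 2.19 (limma adjusted p = 2.72e-10), with 34.8, 26.9 and 30.4 RPM at 10000 nM against 10.9 and 10.7 RPM at 0 nM in the hybridoma, and 125, 122 and 138 RPM at 10000 ng/ml against 220 and 220 RPM at 0 ng/ml in CD4+ cells. The palmitoyltransferase Zdhhc20 differed by 2.04 (limma adjusted p = 3.08e-11), B630019A10Rik by 1.11 (5.56e-06), Adam10 by 0.90 (0.000173) and Pigc, of the GPI anchor pathway, by 0.81 (0.00319), all 5 of them higher with stimulation in the hybridoma and lower in CD4+ cells. The hybridoma rise of Adam10 did not pass without the dose 0 library of replicate 1 (limma adjusted p = 0.0504).

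The other 10 fell in the hybridoma and rose in CD4+ cells, and all but 1 are given here. The transcription factor Tcfap4 differed by -2.39 (limma adjusted p = 4.26e-08), the telomere maintenance gene Telo2 by -1.71 (1.26e-06), the histone methyltransferase Suv39h2 by -1.61 (1.38e-05) and the mitochondrial folate enzyme Mthfd1l by -1.51 (7.57e-08). Evi5 differed by -1.37 (limma adjusted p = 0.000686), the spindle checkpoint gene Trip13 by -1.16 (1.94e-06), Enpp4 by -1.11 (0.000559), the tRNA splicing gene Tsen54 by -1.07 (0.000489) and the ubiquitin ligase Trim37 by -1.03 (6.21e-05).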

How the results depend on the processing

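Counts of members are given as higher and lower, and shares of all clusters under several of the alternatives are given in the Results above. With both hybridoma dose 0 libraries of number 2 left out, 184 members fell at the top dose, and 4 were higher with engagement. With the B cell markers as a covariate 5 hybridoma members were higher with engagement, and by edgeR 11 were lower. Among hybridoma members of at least 100 bp 0.0% were higher with engagement. With quantile normalization 1 hybridoma member was higher with engagement at 100 nM. In CD4+ cells quantile normalization gave 99 and 202 with engagement over the stimulated doses, edgeR 101 and 246, and DESeq2 80 and 213. With the same normalization 116 fell at 100 ng/ml, and with engagement 5 were lower at 0, 1 at 10, 143 at 100 and 66 at 1000 ng/ml, where 50 were higher. With the B cell marker covariate in CD4+ cells, engagement gave 250 lower at 0, 9 and 43 at 10, 340 lower at 1000, and 54 and 51 at 10000 ng/ml. The cause of these changes was not tested.

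With a replicate block, hybridoma engagement gave 23 and 53 over the stimulated doses, 1 lower at 10 nM, 6 and 46 at 100, 42 and 21 at 1000, and 13 and 17 at 10000 nM. Across hybridoma doses, where the numbers do not pair the libraries, the block gave 1 higher at 10 nM and 116 lower at 100 nM. In CD4+ cells, where the numbers were not taken as pairs, the block gave 52 and 556 with engagement over the stimulated doses (7.9% and 29.7% of all clusters). By dose it gave 21 and 163 at 0 (3.48% and 9.0% of all clusters), 5 and 14 at 10, and 16 and 257 at 1000 ng/ml (2.17% and 12.3%).

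Leaving out 1 library at a time gave these ranges. Hybridoma stimulation gave 73 to 100 higher and 180 to 391 lower at 10000 nM, 53 to 74 and 122 to 417 at 1000, 25 to 46 and 13 to 178 at 100, 0 to 3 and 0 to 112 at 10, and 0 to 4 and 0 to 120 at 1 nM. Hybridoma engagement gave 2 to 3 and 13 to 20 over the stimulated doses, 0 to 1 and 0 at 0 nM, 0 and 0 at 1 and 10, 0 and 6 to 11 at 100, 0 to 1 and 0 to 1 at 1000, and 1 to 3 and 4 to 9 at 10000 nM. CD4+ stimulation gave 242 to 277 and 414 to 502 at 10000 ng/ml, 296 to 308 and 277 to 298 at 1000, 72 to 169 and 37 to 49 at 100, and 0 and 0 at 10 ng/ml. CD4+ engagement gave 35 to 50 and 404 to 564 over the stimulated doses, 0 to 6 and 0 to 23 at 0, 0 to 2 and 0 at 10, 8 to 31 and 129 to 466 at 100, 5 to 7 and 66 to 95 at 1000, and 20 to 133 and 4 to 37 at 10000 ng/ml.

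No called difference of a named gene changed sign under any alternative run. The balance of counts did in places, as with engagement in CD4+ cells at 0 ng/ml, 18 higher and 5 lower with quantile normalization in place of 20 and 113, and in the hybridoma at 1000 nM, 42 and 21 under the block in place of 1 and 2. Over all clusters it moved likewise, to 2.13% and 0.678% in place of 2.67% and 6.83%, and to 2.93% and 2.19% in place of 0.00555% and 0.272%. Of the 50 CD4+ genes named for engagement 37 kept their call by edgeR and by DESeq2 and 36 with quantile normalization, and of 46 hybridoma genes named for stimulation 35 kept it without both dose 0 libraries of number 2. Counting only clusters with a single symbol was not run, because clusters of several symbols carry only a common mark.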

Other observations

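Pseudogenes were a small class of CD4+ members whose calls differed from those of protein-coding members. Their tags can be shared with near-identical parent genes, so their levels are uncertain. Of 26 such members 17 rose and 1 fell with stimulation at 10000 ng/ml against 0 ng/ml, with a median log2 difference of 0.92. With engagement 14 were higher and 1 lower over the stimulated doses, with a median of 0.40. By dose 11 were higher at 0 ng/ml, 0 at 10, 13 at 100, and 0 at 1000 and at 10000 ng/ml, with 2 lower at 1000 ng/ml. Clusters with no symbol leaned the same way, with 16.1% higher and 7.22% lower over the stimulated doses. In the hybridoma, of 35 pseudogene members, 6 rose and 1 fell with stimulation and limma called 0 with engagement. The summed level of the CD4+ pseudogene members averaged 340 RPM with engagement at 100 ng/ml, against 294 RPM without it, and 314 RPM at 1000 ng/ml, against 377 RPM without it. Among protein-coding members, 25 were higher and 512 lower with engagement over the stimulated doses.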
